A study of Mus musculus with 3 samples.

Results

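The let-7 and miR-98 family was measured as mature microRNAs (miRNAs, short RNAs that guide Argonaute proteins to messenger RNAs and so repress them) in visceral white fat. The members are the 9 listed 5p strands let-7a, let-7b, let-7c, let-7d, let-7e, let-7f, let-7g, let-7i and miR-98, taken by name from a table of 1251 mature miRNAs. All 9 exceeded the lowest value of the scale, its floor, in each of 3 mice and passed the filter on low values. The samples were 3 small RNA libraries from epididymal fat of C57BL/6J mice, numbered 1, 3 and 9 in their titles and called mice 1, 3 and 9 here. Each mouse had eaten, for 11 weeks from an age of 5 to 6 weeks, a diet with 45% of its energy as fat, 20% as protein and 35% as carbohydrate, supplemented with 6.75% eicosapentaenoic acid (EPA, one of the omega-3 fatty acids found in fish oil; whether of energy or weight is not stated), and had fasted 4 h before the tissue was taken. No control diet was analysed here, so every comparison below is between members within the same mouse and none measures an effect of EPA. The titles number the samples, but no label states that they came from separate animals, so the spread between them may be in part technical.

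let-7 was first known from the worm Caenorhabditis elegans, where it times the passage to adult cell fates, and mouse let-7a carries the same mature sequence. In mammals the family accumulates as cells differentiate and represses growth and stem cell genes such as Hmga2, Lin28a, Lin28b and members of the Ras family, while LIN28 proteins bind let-7 precursors and block their maturation. In fat, let-7 is known to rise as preadipocytes differentiate and to restrain their expansion through Hmga2, and the balance of LIN28 and let-7 affects insulin sensitivity in mice.

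The mature sequences, from RefSeq on build GRCm38.p6, show how closely the members resemble each other. They are given in order of mean level with the seed, bases 2 to 8, in capitals, because the seed chooses most targets and the remaining bases tell the members apart.
let-7c-5p: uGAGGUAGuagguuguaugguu
let-7a-5p: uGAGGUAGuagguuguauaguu
let-7f-5p: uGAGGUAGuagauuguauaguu
let-7b-5p: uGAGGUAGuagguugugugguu
let-7g-5p: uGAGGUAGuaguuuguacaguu
let-7i-5p: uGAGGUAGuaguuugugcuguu
let-7d-5p: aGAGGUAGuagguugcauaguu
let-7e-5p: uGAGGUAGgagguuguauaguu
miR-98-5p: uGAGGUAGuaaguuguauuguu

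All 9 have 22 bases and the same seed. Counted from 1 at the 5′ end, with the let-7a base first, let-7c differs from let-7a by A19G alone, let-7e by U9G and let-7f by G12A. let-7b carries A17G and A19G, let-7g carries G12U and U18C, and miR-98 carries G11A and A19U. let-7i is the farthest from let-7a, with G12U, A17G, U18C and A19U. let-7d is the member whose change reaches the first base, with U1A and U16C, so it starts with A and the other 8 with U. Of the 36 pairs of members, 4 differ by 1 base: let-7a with let-7c, let-7e and let-7f, and let-7b with let-7c. How the authors assigned reads that match several members within a mismatch is not stated, so values of members this alike are uncertain to that extent.

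The other listed miRNAs found to have this seed were not seen. let-7k and miR-1961, whose bases 2 to 8 equal those of let-7a, were listed at the floor of 3.32 log2 units in all 3 mice. Of the 1251 rows, 250 had no mature sequence of that name in RefSeq and were not checked for the seed. Among the 1001 rows with a sequence, those with this seed that were seen at all were the 9 members.

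The 9 members come from 12 hairpins on mouse build GRCm38, the assembly of mm10. Mirlet7a-1 (48538179 to 48538272), Mirlet7f-1 (48537829 to 48537917) and Mirlet7d (48536012 to 48536114) follow each other on the minus strand of chromosome 13, in an exon of the long non-coding RNA gene 6720427I07Rik. Mirlet7c-2 (85706603 to 85706697) and Mirlet7b (85707319 to 85707403) lie on the plus strand of chromosome 15 in exons of Lncppara, 621 bases apart. Mirlet7f-2 (151912346 to 151912428) and Mir98 (151913214 to 151913321) lie on the plus strand of chromosome X in an intron of the ubiquitin ligase gene Huwe1. Mirlet7c-1 (chromosome 16, 77599657 to 77599750, plus strand) lies in an intron of Mir99ahg, the host of Mir99a, and Mirlet7e (chromosome 17, 17830352 to 17830444, plus strand) lies in an intron of Spaca6 beside Mir99b and Mir125a. Mirlet7a-2 (chromosome 9, 41536716 to 41536811, plus strand) lies in introns of the non-coding genes 3110039I08Rik and Gm49317. Mirlet7g (chromosome 9, 106178840 to 106178927, plus strand) lies in an intron of Wdr82, which encodes a subunit of a histone methyltransferase complex. Mirlet7i (chromosome 10, 122985640 to 122985724, minus strand) lies in an exon of the pseudogene D630033A02Rik. let-7a, let-7c and let-7f are each made from 2 of these hairpins, whose 5p strands are identical and cannot be told apart, and the other 6 members from 1 each.

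let-7c and let-7a led the family, with let-7f next and miR-98 far below. Values are the deposited log2 normalized counts, on a scale whose floor is a linear value of 10. let-7c-5p stood at 16.72 in mouse 1, 16.51 in mouse 3 and 16.72 in mouse 9, and let-7a-5p at 16.51, 16.02 and 16.51. let-7f-5p stood at 15.16, 15.56 and 15.30 in the same mice. In every mouse these 3 members lay above the other 6, the lowest of their values being 15.16 and the highest value of any single-hairpin member 14.52. The 3 leaders are also the 3 members made from 2 hairpins. Whether the number of hairpins bears on their level was not tested. let-7a is the form conserved from worms to mammals.

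Below them came 4 members at close levels and then let-7e and miR-98. let-7b-5p stood at 14.52, 14.24 and 14.52 in mice 1, 3 and 9, let-7g-5p at 14.11, 14.11 and 13.74, and let-7i-5p at 14.18, 13.63 and 14.02. let-7d-5p stood at 13.63, 13.51 and 13.63, and so met the lowest value of let-7i. let-7e-5p stood at 12.50, 12.45 and 12.59, and miR-98-5p at 10.99, 10.93 and 10.93, each with no overlap with any other member. miR-98 carries a name of its own but the family seed. The mean levels spanned 5.70 log2 units, a ratio of 52.0 between let-7c and miR-98.

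**Figure D1:**
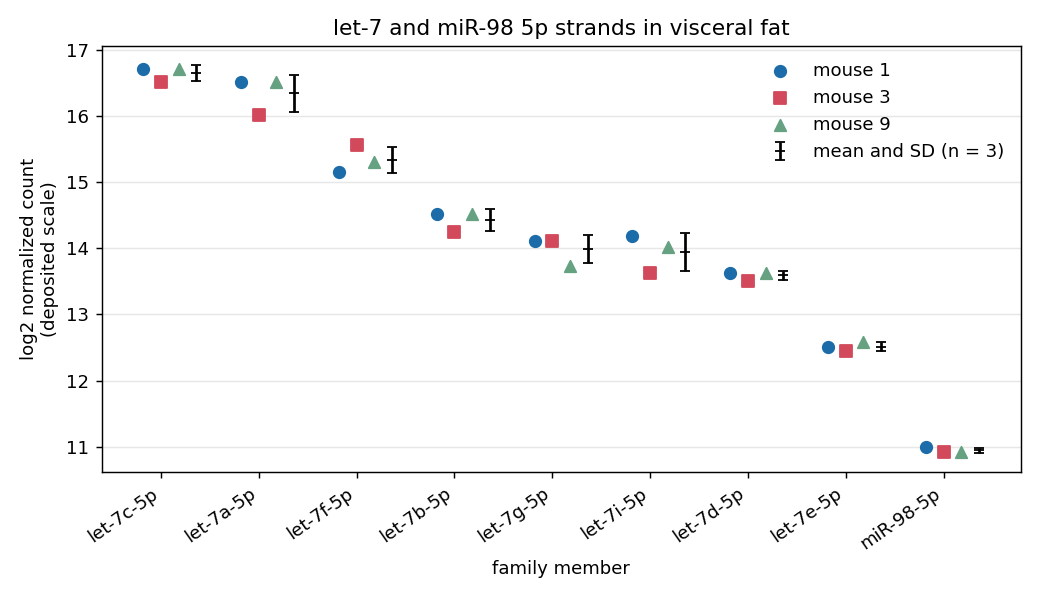
Deposited log2 normalized count (vertical axis) of each of the 9 family members (horizontal axis, by mean level) in mice 1, 3 and 9, with the mean and SD of the 3 mice as a black bar. let-7c and let-7a sit between 16.02 and 16.72, let-7b, let-7g, let-7i and let-7d between 13.51 and 14.52, and miR-98 near 10.95.

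As a share of the family's summed linear value, let-7c held 33.9% ± 0.211 and let-7a 27.6% ± 3.15 (SD, n = 3). let-7f held 13.9% ± 3.10. The 3 members with 2 hairpins held 75.4% ± 0.876 together, so most of the family signal came from strands that cannot be assigned to a hairpin. let-7b held 7.28% ± 0.239, let-7g 5.43% ± 1.04, let-7i 5.23% ± 0.630 and let-7d 4.07% ± 0.119. let-7e held 1.93% ± 0.0992 and miR-98 0.650% ± 0.0449. The SDs of let-7a and let-7f were the largest of the 9 in percentage points. let-7a held 29.3% of the family in mouse 1, 24.0% in mouse 3 and 29.5% in mouse 9, and let-7f held 11.5%, 17.4% and 12.8%. In mouse 3 let-7a was thus at its lowest share and let-7f at its highest.

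The order of the members held in most comparisons, as it did for most pairs of tested miRNAs. Of the 36 pairs, 35 (97.2%) kept the order of their means in all 3 mice, where 89.5% of all 18721 pairs of tested miRNAs did. The means come from the same 3 mice, which favours a kept order, and no test was made of this share. The family pair that did not keep its order was let-7g and let-7i: let-7g was below let-7i in mice 1 and 9 and above it in mouse 3. By limma's moderated test on the within-mouse difference, two-sided, fitted over all 18721 pairs with Benjamini-Hochberg adjustment, 31 of the 36 pairs differed at an adjusted p below 0.05. The share of all pairs past that threshold was 82.8%, so 31 of 36 (86.1%) is near the background. Because most pairs pass, the adjusted p lies close to the unadjusted p for pairs near the threshold, such as let-7b over let-7i with 0.0479 adjusted and 0.0395 unadjusted.

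let-7c exceeded let-7f by 1.31 ± 0.32 log2 units (adjusted p = 0.00402, 3 of 3 mice), and let-7a exceeded let-7f by 1.01 ± 0.48 (adjusted p = 0.0189, 3 of 3 mice). let-7f exceeded let-7b by 0.91 ± 0.36 (adjusted p = 0.0155, 3 of 3 mice). let-7b exceeded let-7d by 0.84 ± 0.09 (adjusted p = 0.00793), let-7d exceeded let-7e by 1.07 ± 0.04 (adjusted p = 0.00324) and let-7e exceeded miR-98 by 1.57 ± 0.08 (adjusted p = 0.000967), each in 3 of 3 mice. By mean level, let-7c and let-7a thus stood at the top, let-7f below, then let-7b, let-7g, let-7i and let-7d, and last let-7e and miR-98. The middle members were not level with each other, since let-7b exceeded let-7d. The call of let-7a over let-7f was lost without mouse 1 (adjusted p = 0.0861) and without mouse 9 (adjusted p = 0.0892), and that of let-7f over let-7b without mouse 9 (adjusted p = 0.0553). The call of let-7b over let-7d held without mouse 1 (adjusted p = 0.0401), mouse 3 (adjusted p = 0.0263) or mouse 9 (adjusted p = 0.0463).

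Of all pairs of members, 5 did not pass the test. let-7c stood above let-7a in 3 of 3 mice by 0.30 ± 0.16 log2 units, with a 95% interval of the difference from -0.15 to 0.76 (adjusted p = 0.158). The intervals were -0.12 to 0.99 for let-7b over let-7g (adjusted p = 0.107) and -0.11 to 0.91 for let-7g over let-7d (adjusted p = 0.110). For let-7i over let-7d the interval was -0.13 to 0.84 (adjusted p = 0.128), and for let-7g over let-7i it was -0.56 to 0.65 (adjusted p = 0.858). These intervals leave room for differences of most of a log2 unit, so the members were not shown to stand at one level. let-7b over let-7i lay at the edge, at 0.48 ± 0.14 log2 units (interval 0.04 to 0.93, adjusted p = 0.0479, 3 of 3 mice). Its adjusted p rose to 0.0872 without mouse 1, 0.135 without mouse 3 and 0.155 without mouse 9.

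**Figure D2:**
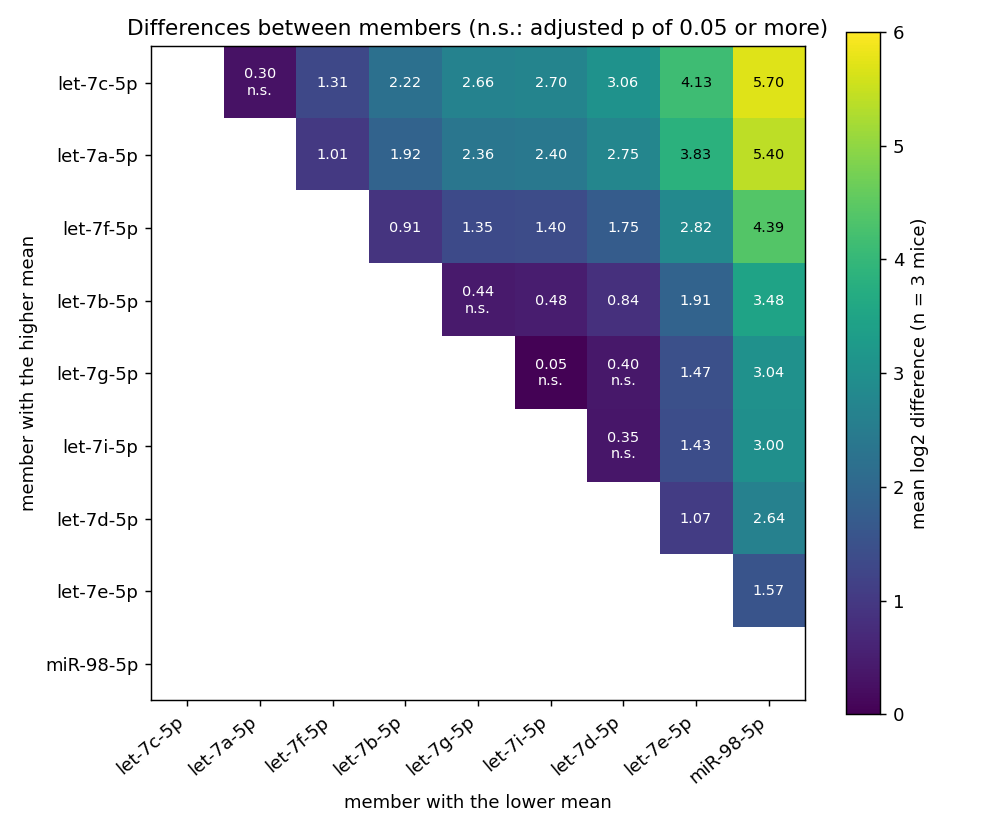
Mean within-mouse log2 difference (n = 3 mice) between the member of each row and the member of each column, members ordered by mean level, colour running from 0 to 6 log2 units. Cells marked n.s. are the 5 pairs with an adjusted p of 0.05 or more; the widest difference, 5.70, is that of let-7c over miR-98.

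Pairs with few base differences were found both close together and far apart in level. The 4 pairs that differ by 1 base had mean log2 differences of 0.30 (let-7c over let-7a), 1.01 (let-7a over let-7f), 2.22 (let-7c over let-7b) and 3.83 (let-7a over let-7e). The median was 1.61 for these 4 pairs, 2.56 for the 10 pairs that differ by 2 bases, 1.75 for the 11 that differ by 3 and 2.40 for the 9 that differ by 4. The pair with the most differences, let-7i and let-7d with 6, was among the closest in level, at 0.35. These values describe 36 pairs that share 9 members, and no test was made on them.

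Members transcribed side by side had different normalized values. On chromosome 15, let-7c exceeded let-7b by 2.22 ± 0.04 log2 units (adjusted p = 0.000300), although let-7c also comes from chromosome 16. The gap was 2.20, 2.27 and 2.20 in mice 1, 3 and 9. Each of these strands held the same rank and value in mice 1 and 9, so the small SD rests on shared ranks. On chromosome X, let-7f exceeded miR-98 by 4.39 ± 0.23 (adjusted p = 7.44e-05), although let-7f also comes from chromosome 13. On chromosome 13, let-7a exceeded let-7d by 2.75 ± 0.21 (adjusted p = 0.000233) and let-7f exceeded let-7d by 1.75 ± 0.27 (adjusted p = 0.00124). In these 5 pairs of clustered members, let-7a over let-7f among them, at least 1 member has a second hairpin elsewhere, so the output of a single cluster was not measured.

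let-7c, let-7a and let-7e also share transcripts with strands of the miR-99, miR-100 and miR-125 families, which lie beside them in ancient clusters. let-7e, the one of these 3 with a single hairpin, stood below its neighbours, by 2.34 ± 0.26 log2 units against miR-99b-5p (adjusted p = 0.000453) and by 2.87 ± 0.09 against miR-125a-5p (adjusted p = 0.000151). miR-99b-5p was at 14.88, 14.52 and 15.16 and miR-125a-5p at 15.30, 15.30 and 15.56 in mice 1, 3 and 9. let-7c and let-7a stood above theirs, by 4.84 ± 0.22 for let-7c over miR-99a-5p (adjusted p = 6.17e-05) and 3.93 ± 0.36 for let-7a over miR-100-5p (adjusted p = 0.000147). Both also exceeded miR-125b-5p, which has a hairpin in each of these clusters. Of the 6 pairs of a member with a clustered neighbour, the member was higher in 4 and lower in 2, all past the threshold that 82.8% of all pairs passed.

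The SDs of the 9 members between mice ranged from 0.04 log2 units for miR-98 to 0.28 for let-7a, with a median of 0.16, against a median of 0.22 over the 194 miRNAs tested, and 7 of 9 were below the latter, where 50.0% of tested miRNAs are by definition. The count was 5 of 9 against miRNAs with a mean of at least 1000, and also 5 of 9 without mouse 1 or without mouse 9, which is near that background. With all mice the exceptions were let-7a and let-7i (0.28 each). The values are in essence ranks, because the sorted columns are the same in the 3 mice at 64 of the first 73 ranks, which hold all members. let-7c held rank 6, 7 and 6 in mice 1, 3 and 9, and let-7a rank 7, 10 and 7. A fall of 1 rank from the position of let-7c in mouse 1 is worth 0.21 log2 units, whereas near miR-98, at ranks 72, 73 and 73, it is worth 0.06. The SDs of high and low members therefore rest on steps of unequal size.

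Mouse 3 had the lowest value for 6 of the 9 members: let-7a, let-7b, let-7c, let-7d, let-7e and let-7i. The same held for 39.2% of tested miRNAs, and no test was made of this share. let-7f went the other way, with its highest value in mouse 3, and let-7g was lowest in mouse 9. let-7a, let-7b, let-7c and let-7d had equal values in mice 1 and 9 within 1e-06, as did 8.25% of tested miRNAs, and in both mice each of these 4 strands held the same rank. The widest range was that of let-7i, at rank 24 in mouse 1, 32 in mouse 3 and 27 in mouse 9.

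**Figure D3:**
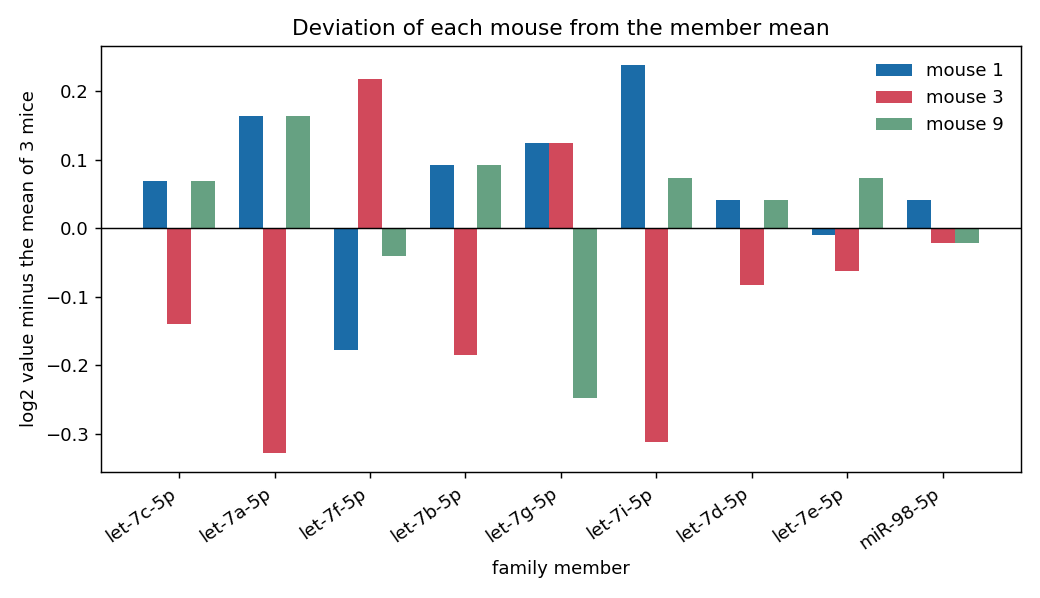
Deviation of each mouse from the mean of the 3 mice, in log2 units (vertical axis), for each member (horizontal axis, by mean level). Mouse 3 lies below 0 for 7 of the 9 members and above it for let-7f and let-7g.

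Summed over members, the family held 13.2% of all normalized signal in mouse 1, 11.5% in mouse 3 and 13.1% in mouse 9. The miRNAs whose deviations over the 3 mice were most like those of the summed family, among 185 others, were miR-30c-2-3p, with a root mean square difference of 0.0067 log2 units, miR-132-3p (0.021), miR-339-5p (0.027), miR-423-3p (0.036) and miR-210-3p (0.037). Each was lowest in mouse 3, as was the summed family, which follows from how they were chosen. With 3 mice such likeness is a description only.

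Marker miRNAs of some other cell types also differed between mice. The striated muscle list held 0.163%, 3.57% and 2.79% of the signal in mice 1, 3 and 9, with 2 of its 4 miRNAs above the floor in all mice. Most of that sum was miR-133a-3p, at 11.94, 16.38 and 16.02 log2 units, whereas miR-1a-3p was at 3.32, 5.53 and 3.44 and miR-206-3p above the floor in mouse 3 alone, at 3.83. The epithelial list held 0.0692%, 0.157% and 0.0378%, with 4 of 7 above the floor in all mice. Its members did not move as one, since miR-200a-3p (6.81, 6.08 and 3.32) and miR-200b-3p (8.40, 7.73 and 4.19) were highest in mouse 1 and miR-205-5p (8.70, 11.12 and 8.04) in mouse 3. The leukocyte list held a nearly even 0.354% to 0.381%, with miR-155-5p at the floor in all mice. Within it miR-142-5p was highest in mouse 3 (9.65, 10.21 and 9.71), whereas miR-142-3p, miR-150-5p and miR-223-3p were lowest there. The erythroid list held 0.179% to 0.285% and the endothelial list 0.618% to 0.884%. All 5 adipocyte-enriched miRNAs were above the floor, at 12.3%, 14.0% and 10.2%. The highest of them in every mouse was miR-143-3p (17.20, 17.20 and 16.90), so the sum leans on that miRNA. This list did not move as one either, since miR-193b-3p was highest in mouse 3 and miR-365-3p in mouse 9. In mouse 3, where let-7a was at rank 10, the 3 miRNAs above it that were below it in both other mice were miR-133a-3p of striated muscle and miR-30a-5p and miR-378a-3p of the adipocyte-enriched list. miR-30a-5p stood at 16.18 in every mouse, so let-7a fell below it. miR-133a-3p and miR-378a-3p (16.02, 16.72 and 15.47) were highest in mouse 3. The part of these lists in the family's values was not tested, and in whole tissue fewer cells of a type and less RNA per cell cannot be told apart.

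The opposite strands of the same hairpins were far lower, except for let-7d. A hairpin is cut into a 5p and a 3p strand, and in this family Argonaute is known to keep the 5p strand. Of the 12 listed 3p strands, 6 were above the floor in all mice, 2 in some mice and 4 in none. Rows at the floor shared rank 317 in mouse 1, 318 in mouse 3 and 337 in mouse 9, of 1251 listed rows. Most listed rows were thus at the floor in each mouse, so these counts do not show unusually weak detection of the family's 3p strands. The share of all 3p strands above the floor was not computed. The strands that were seen in all mice are shown with bases 2 to 8 in capitals, because a 3p strand that is kept would choose targets by a seed different from that of let-7.
let-7d-3p: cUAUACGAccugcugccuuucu
let-7i-3p: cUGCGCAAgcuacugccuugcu
let-7b-3p: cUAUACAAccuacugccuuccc
let-7e-3p: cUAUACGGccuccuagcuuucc
let-7a-1-3p: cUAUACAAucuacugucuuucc
let-7c-2-3p: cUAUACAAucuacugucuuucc

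let-7a-1-3p and let-7c-2-3p have the same sequence and the same values in every mouse, so they are 1 signal under both names. They share their seed with let-7b-3p, while let-7d-3p, let-7e-3p and let-7i-3p each have another.

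let-7d-3p stood at 12.20, 11.70 and 12.20 log2 units in mice 1, 3 and 9, ranks 50, 58 and 50. It was above miR-98-5p in every mouse. let-7d-3p made up 27.0%, 22.2% and 27.0% of the summed linear value of the let-7d strands, a mean of 25.4% ± 2.79 (SD, n = 3). Among the other single-copy hairpins whose 3p strand was seen in every mouse, the 3p share was 1.13% ± 0.226 for let-7e, 0.824% ± 0.229 for let-7i and 0.515% ± 0.0852 for let-7b. let-7i-3p stood at 7.55, 6.35 and 7.42, let-7b-3p at 6.87, 6.69 and 7.27, and let-7e-3p at 6.28, 5.92 and 6.55. All 4 of these 3p strands were lowest in mouse 3, as were their 5p strands.

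The hairpins of let-7d and, for contrast, let-7g are shown with the 5p and 3p strands in capitals. They lie at chr13:48536012-48536114 on the minus strand and at chr9:106178840-106178927 on the plus strand, GRCm38.p6.
Mirlet7d: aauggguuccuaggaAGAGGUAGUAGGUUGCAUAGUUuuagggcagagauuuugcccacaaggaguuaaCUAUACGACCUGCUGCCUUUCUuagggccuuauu
Mirlet7g: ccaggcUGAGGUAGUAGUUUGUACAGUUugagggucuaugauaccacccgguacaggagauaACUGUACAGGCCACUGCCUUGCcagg

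The let-7d 5p strand starts with A and its 3p strand with C, whereas the let-7g 5p strand starts with U and its 3p strand with A. A 3p start with C is not particular to let-7d, since let-7b-3p, let-7e-3p and let-7i-3p share it. Whether the first bases bear on the strand ratio was not tested. let-7g-5p was at 14.11, 14.11 and 13.74 in mice 1, 3 and 9, against 3.83, the floor of 3.32 and 3.83 for let-7g-3p. miR-98-3p, let-7a-2-3p, let-7f-1-3p and let-7f-2-3p were listed at the floor in all mice, so no ratio is given for them.

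Strand ratios were tested with limma, two-sided and adjusted over 153 ratios of a 5p to a 3p row, of which 58.8% passed with the 5p strand higher. A ratio entered on its larger strand alone, and a low 3p strand therefore fixes the outcome, so no count over the family is read from this test. The 4 single-copy hairpins with both strands seen in every mouse each passed with the 5p strand higher. The log2 ratio of let-7d was 1.43, 1.81 and 1.43 in mice 1, 3 and 9 (mean 1.56 ± 0.22, adjusted p = 0.000611). It was 6.27 ± 0.25 for let-7e (adjusted p = 6.81e-06), 6.84 ± 0.39 for let-7i (adjusted p = 9.65e-06) and 7.48 ± 0.21 for let-7b (adjusted p = 3.73e-06), with no overlap with let-7d. Of all 153 ratios, 43.8% lay below that of let-7d and 70.6% below that of let-7e, and among the 90 with the 5p strand called higher these shares were 4.4% and 50.0%. Those 90 leave out every ratio not called and every ratio with the 3p strand higher, so the low standing of let-7d among them is set in part by that choice.

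The other 3 single-copy hairpins with both strands seen in every mouse had higher ratios than let-7d. The ratio of let-7e exceeded that of let-7d by 4.71 ± 0.10 log2 units (adjusted p = 4.02e-05), that of let-7i by 5.28 ± 0.17 (adjusted p = 3.01e-05) and that of let-7b by 5.93 ± 0.26 (adjusted p = 2.41e-05), each in 3 of 3 mice. These come from limma's test over all 11628 pairs of ratios, of which 89.8% passed, and the comparison was chosen after the ratios had been seen.

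**Figure D4:**
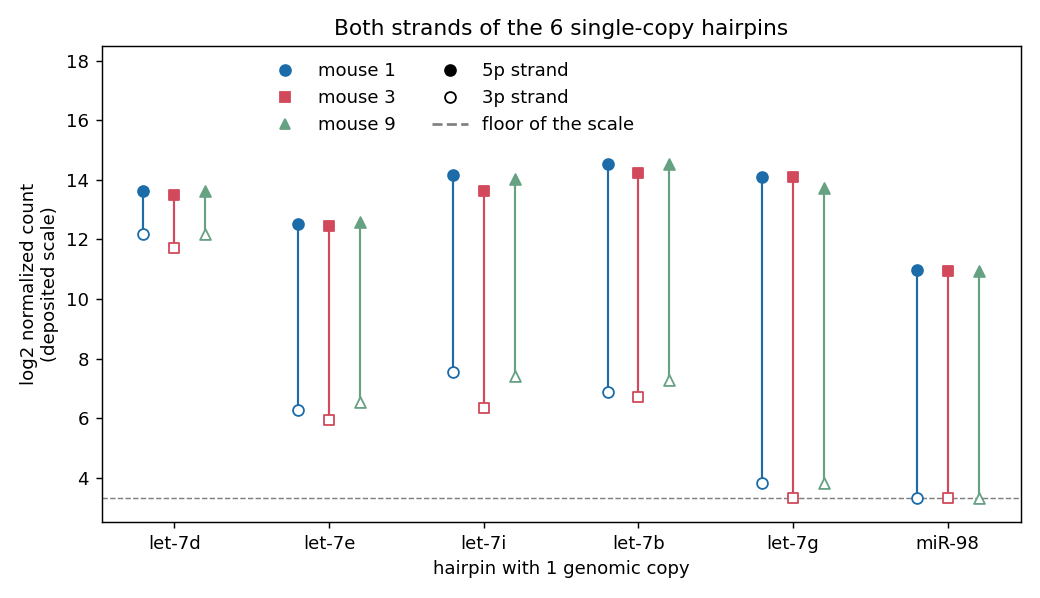
Deposited log2 normalized count (vertical axis) of the 5p strand (filled) and the 3p strand (open) of the 6 single-copy hairpins (horizontal axis) in mice 1, 3 and 9, with the floor of the scale as a dashed line. The let-7d strands are 1.43 to 1.81 log2 units apart, whereas those of let-7e, let-7i and let-7b are more than 6 units apart.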

How the data were processed

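Library preparation followed Illumina's protocol for small RNA, per the labels' protocols. The table holds deposited log2 values, with 1 column per mouse. Per the series' design text, the authors ran reads through their own pipeline (Gunaratne), with close to 13.8 M mapped to mm10 in each sample, scaled the counts by the total of usable reads and added a constant of 40. The lowest value is however 10 on the linear scale, and 85 of the top 100 ranks hold the same value in the 3 mice within 1e-06, a pattern whose cause no source used here states. Depth per library is unknown, so no counting interval is given. Which aligner and annotation were used, and how reads matching several members were handled, is not given in the sources used here.

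Linear values are the power of 2 minus 10, and shares are of their sum. Tests used 194 miRNAs whose mean linear value was 100 or more, or ratios whose larger strand reached that value. limma 3.58.1 in R 4.3.3 tested within-mouse differences over all pairs of miRNAs and over all 5p to 3p ratios, with Benjamini-Hochberg adjustment and a threshold of 0.05. It was tried on simulated data. Pairs share miRNAs and are not independent. Errors are SDs over 3 mice, intervals are limma's moderated 95% intervals, and p-values measure only the spread between these samples. None of these would show uneven capture of different sequences by the library preparation, which was not measured. Sequences came from RefSeq (GRCm38.p6), which holds all 9 members, and host genes from GENCODE M21. Python 3.11.15 with pandas 2.3.3 and matplotlib 3.10.9 served the rest. The members and lists were chosen with earlier results of these data known. Named miRNAs are the members, their 3p strands, listed miRNAs with the same seed, clustered neighbours, the marker lists and the 5 most alike in deviation over mice. Those above let-7a in mouse 3 only were named after their values were seen. Alternatives were other constants (1 or 40), filters, variance priors, median-centred mice, summed 3p strands and leaving out each mouse.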

Additional observations from a re-analysis of the deposited data

How the results depend on the processing

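The count of family pairs past the threshold was 31 of 36, and under the other settings it lay between 28 (without mouse 9) and 31. Only let-7b over let-7i lost its call with no filter beyond being seen in 1 mouse (adjusted p = 0.0898 by limma). Centring each mouse on its median could not change a within-mouse difference and was not run for pairs. let-7g minus let-7i, not past the threshold at 0.05 log2 units, ran from -0.17 (without mouse 3) to 0.21 (without mouse 9) when 1 mouse was left out. The family share of 12.6% ± 0.963 lay between 12.3% and 13.2%. For the single-copy hairpins of let-7b, let-7d, let-7e and let-7i, the 5p strand stayed higher and past the threshold under every setting. In the main setting 58.8% of all ratios passed that way, and a low 3p strand fixes this outcome. The size of a ratio with a low 3p strand depended on the constant. With 1 and with 40 as the constant the log2 ratio was 12.41 and 8.57 for let-7g (10.33 with 10) and 6.45 and 5.79 for let-7e (6.27), against 1.56 and 1.55 for let-7d (1.56). The count of members with an SD below the median lay between 5 and 9, where leaving out a mouse was added after the data were seen. No paired analysis of groups was possible because there is 1 group, and members were compared within each mouse. With 1 library per mouse as numbered, 1 diet and unknown depth, the precision of each value rests on 3 samples, and changes smaller than 1 rank step are not resolved.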
